A study of Homo sapiens with 12 samples.

Results

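HepG2 cells kept in Plasmax without its trace elements but with iron put back (Plasmax-TE+Fe) were compared with HepG2 cells kept in complete Plasmax. The comparison used 6 of the 12 libraries of the study, 3 for each of the 2 media, chosen by the names of their columns in the table of counts. Of 10994 entries in the table, 10940 genes remained after one row was kept per Ensembl identifier, and 10459 of these passed the filter on low counts and were tested. HepG2 is a widely used human liver tumour line, and every library was labelled as its wild-type genotype. Plasmax is a culture medium whose nutrients follow human plasma. Cells were seeded in EMEM (Eagle's minimum essential medium), washed and moved to the medium under study 24 h later, given fresh medium after a further 48 h, and harvested at 96 h. Every medium contained 10% heat-inactivated fetal bovine serum, which brings trace elements of its own. The labels do not give the elements left out or the form and amount of the iron. They do not state that replicates were grown separately either, and p-values therefore measure only the spread between these libraries. Plasmax without any added trace element (Plasmax-TE, 3 libraries) is given beside the comparison, and its difference from Plasmax shares the Plasmax libraries.

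Trace metals act on liver cells through a few well-known gene families. Metallothioneins are small cysteine-rich proteins that bind zinc and copper, and their genes are switched on by the zinc-sensing factor MTF1. Selenoproteins carry selenocysteine, and the messenger RNA of some of them is destroyed when selenium is scarce. Hepcidin, the product of HAMP, is secreted by hepatocytes and blocks the release of iron into blood.

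Reads were counted from the 3′ end of transcripts (QuantSeq), and levels are given as CPM (counts scaled to a common library total) scaled with TMM factors, which correct for differences in RNA composition between libraries. Total counts were 2379065, 1849229 and 2013357 in the Plasmax-TE+Fe libraries and 1562125, 1914442 and 2227849 in the Plasmax libraries, so that 1 count stood for 0.420 to 0.640 CPM. Hepatocyte genes were present in all 6 libraries, ALB at 3885 CPM or more. Of other cell types, 0 of 7 endothelial, 2 of 10 stellate and fibroblast (ACTA2 and PDGFRB) and 1 of 10 blood cell markers (LYZ) were tested. Plasmax-TE+Fe replicate 2 stood apart. On the second principal component, which held 17.6% of the variance, it lay at -32.0 beside Plasmax-TE replicate 1 at -35.5, while the other 10 libraries lay between -8.11 and 19.6. The library numbers of these 2 are 88 and 87, next to each other. For the genes described, calls against Plasmax that were lost or gained without Plasmax-TE+Fe replicate 2 are stated beside them, and the part of this library in them was not tested further.

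In Plasmax-TE+Fe the iron hormone gene HAMP was 10.9-fold higher than in Plasmax, the liver products ALB and AFP were 1.91- and 1.79-fold higher, and metallothioneins, SELENOW and CYP1A1 were at a fraction of their Plasmax levels. At a Benjamini-Hochberg adjusted p under 0.05 in the quasi-likelihood test of edgeR, 126 of 10459 genes were called, which is 1.20% of the genes tested. Of these, 53 were higher (0.507%) and 73 lower (0.698%) in Plasmax-TE+Fe. An absolute log2 fold change of 1 or more was reached by 25 of the higher and 46 of the lower genes. The median log2 fold change was 0.94 among the called higher genes, -1.18 among the called lower genes and 0.01 over all genes tested. An unadjusted edgeR p under 0.05 was found for 1420 of the 10459 genes. Libraries of the 2 media did not overlap for 125 of the 126 called genes, against 18.1% of all genes tested (8.63% higher and 9.42% lower), and the exception was TMSB4X, whose call was lost without Plasmax-TE+Fe replicate 2. Every one of the 126 kept its direction when Plasmax-TE+Fe replicate 2 was left out, and 70 were still called. Among single libraries left out, Plasmax replicate 2 moved the number of calls most. Without it 31 were still called, all 126 again keeping their direction. Since the 126 were chosen from these same libraries, the lack of overlap and the kept direction were nearly fixed in advance and are no separate evidence.

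**Figure D1:**
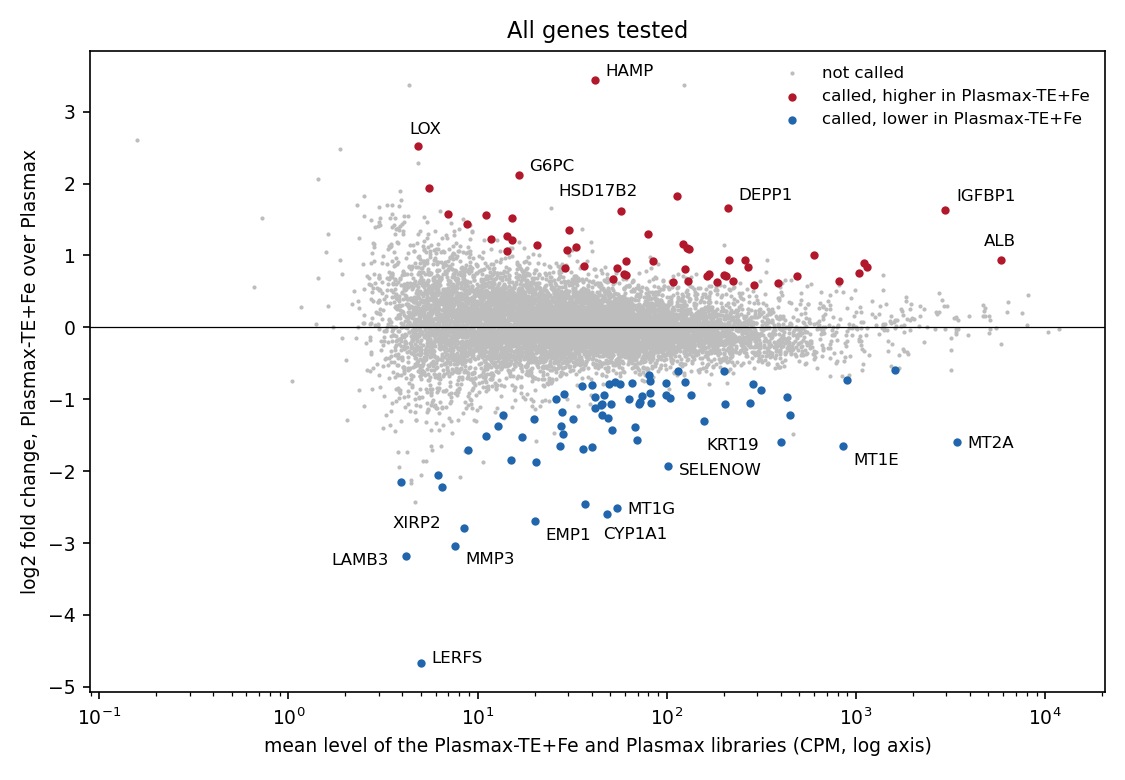
Each point is 1 of the 10459 genes tested, with the mean level over the Plasmax-TE+Fe and Plasmax libraries in CPM on a log axis and the log2 fold change of Plasmax-TE+Fe over Plasmax on the vertical axis. Red points are the 53 genes called higher and blue points the 73 called lower; HAMP lies highest among the called genes at 3.44, and LERFS lowest at -4.67.

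The metallothioneins formed the family with the largest share of called members among the lists described. Of 11 listed genes 6 were tested, and 5 of the 6 fell in Plasmax-TE+Fe, against 0.698% of all genes tested. The median log2 fold change over the 6 was -1.62. All 5 calls held without Plasmax-TE+Fe replicate 2 and without Plasmax replicate 2. Summed over the family, 1427 to 2641 CPM were counted in the Plasmax-TE+Fe libraries, 954 to 1815 CPM in the Plasmax-TE libraries and 6056 to 7386 CPM in the Plasmax libraries. Members of this family are near-identical in sequence, and reads could have been split between them in the counting, so values of single members are less certain than the sum.

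The promoters of the metallothioneins are known to carry several copies of the metal response element, the site that MTF1 binds. Promoter sequences of 2 of the 5 called members, MT2A and MT1X, were at hand from RefSeq (GRCh38.p14). They are shown because these 2 genes fell together, and the 250 bases before each transcription start are printed 5′ to 3′ on the gene's strand, with each core of the element (TGCACNC or TGCGCNC, on either strand) in capitals. The MT2A window is chr16:56608334-56608583 (plus strand) and the MT1X window is chr16:56682220-56682469 (plus strand).
MT2A: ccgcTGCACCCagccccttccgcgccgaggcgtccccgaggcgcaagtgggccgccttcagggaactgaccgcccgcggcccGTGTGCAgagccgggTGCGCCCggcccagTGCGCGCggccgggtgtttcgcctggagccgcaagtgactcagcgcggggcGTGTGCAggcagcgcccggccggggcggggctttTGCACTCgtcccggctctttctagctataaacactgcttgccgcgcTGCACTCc
MT1X: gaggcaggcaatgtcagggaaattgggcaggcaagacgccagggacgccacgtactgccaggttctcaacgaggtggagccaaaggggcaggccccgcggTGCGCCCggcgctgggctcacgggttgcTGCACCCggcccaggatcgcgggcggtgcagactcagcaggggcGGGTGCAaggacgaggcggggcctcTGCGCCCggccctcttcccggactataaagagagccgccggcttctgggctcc
The search found 7 such cores before MT2A and 4 before MT1X, none overlapping another. Of 35116 promoter windows of the same length, 24.8% held at least 1 core and 0.37% held 4 or more. A match of letters is a description of the sequence and not evidence of binding.

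MT2A, the most abundant member, was counted at 1897, 1078 and 2117 CPM in Plasmax-TE+Fe, against 4606, 5772 and 5020 CPM in Plasmax. Its 3 Plasmax-TE+Fe libraries lay well below all Plasmax libraries, replicate 2 lowest. The log2 fold change was -1.60 ± 0.24 (SE), a 3.02-fold lower level (edgeR adjusted p = 0.0012). MT1E had 510, 286 and 447 CPM in Plasmax-TE+Fe and 1249, 1392 and 1264 CPM in Plasmax, again without overlap and again lowest in Plasmax-TE+Fe replicate 2. It was 3.14-fold lower (log2 fold change -1.65 ± 0.22 SE, edgeR adjusted p = 3.6e-04).

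The 2 members with the deepest fall were expressed at lower levels. MT1G (ENSG00000125144) had 23.2, 12.3 and 12.9 CPM in Plasmax-TE+Fe, against 77.8, 74.1 and 127 CPM in Plasmax. All Plasmax-TE+Fe libraries lay far below the Plasmax libraries, and the level was 5.68-fold lower (log2 fold change -2.51 ± 0.29 SE, edgeR adjusted p = 7.6e-05). MT1F had 15.1, 10.3 and 8.47 CPM in Plasmax-TE+Fe, against 51.4, 58.1 and 78.7 CPM in Plasmax, a 5.51-fold lower level (log2 fold change -2.46 ± 0.26 SE, edgeR adjusted p = 2.3e-05). Both genes were highest in Plasmax replicate 3. MT1X had 14.2, 12.3 and 18.4 CPM in Plasmax-TE+Fe, against 31.4, 46.1 and 47.5 CPM in Plasmax, and its log2 fold change was -1.48 ± 0.23 (SE, edgeR adjusted p = 0.0017). MT1A was the one tested member that was not called, with 20.6, 27.8 and 36.8 CPM in Plasmax-TE+Fe against 40.8, 44.6 and 36.8 CPM in Plasmax (log2 fold change -0.52, edgeR adjusted p = 0.27).

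Setting Plasmax-TE+Fe against Plasmax-TE tested what the iron added to the medium without trace elements. In that comparison edgeR called 27 genes (0.258% of those tested), 9 higher (0.0861%) and 18 lower (0.172%). It called 0 of the 6 metallothioneins, of which 3 had an unadjusted p under 0.05, against 974 of all 10459 genes tested. DESeq2 called 1 (MT1F) and limma-voom 0. Members did not lie on one side there. The log2 fold change of Plasmax-TE+Fe over Plasmax-TE was -1.15 (95% interval -1.74 to -0.56, edgeR adjusted p = 0.091) for MT1F and -0.64 (-1.32 to 0.04) for MT1G. It was 0.71 (0.23 to 1.19, edgeR adjusted p = 0.27) for MT1A and 0.69 (0.20 to 1.17, edgeR adjusted p = 0.30) for MT2A. For MT1E it was 0.18 (-0.28 to 0.63) and for MT1X -0.01 (-0.55 to 0.53). MT2A was also tested without Plasmax-TE+Fe replicate 2 and was then called higher than in Plasmax-TE (log2 fold change 0.93, edgeR adjusted p = 0.020). That difference was called in only 3 of 16 alternative settings, its adjusted p reaching 0.95.

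**Figure D2:**
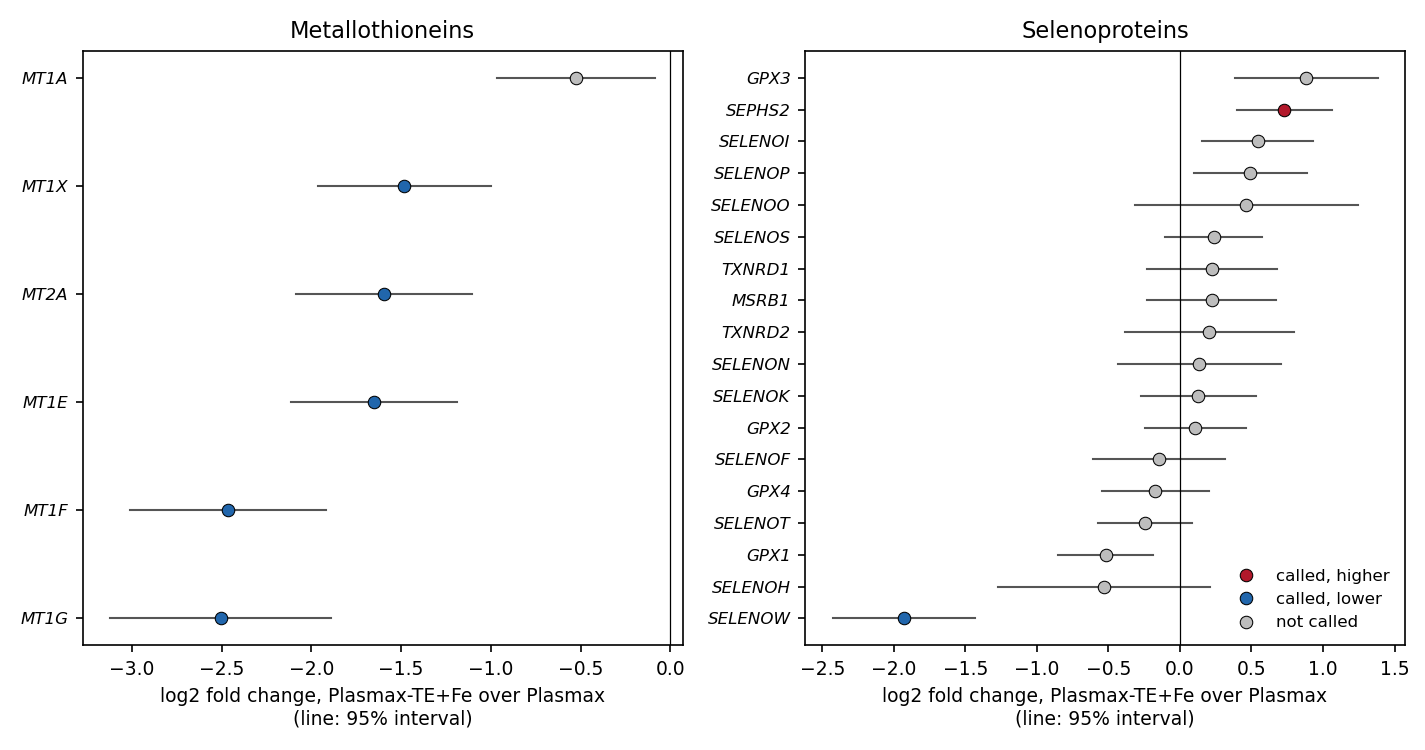
Log2 fold change of Plasmax-TE+Fe over Plasmax (horizontal axis) for the 6 tested metallothioneins on the left and the 18 tested selenoproteins on the right, as points with 95% intervals from the edgeR fit. Of the metallothioneins 5 are called lower and MT1A is not called, while of the selenoproteins SELENOW is called lower and SEPHS2 higher.

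Selenoprotein genes did not shift as a family. Of 25 listed, 18 were tested, 1 rose and 1 fell. Of all genes tested, 0.507% were called higher and 0.698% lower. The list's median log2 fold change was 0.17, against 0.01 over all genes. SELENOW (ENSG00000178980), which encodes a small selenoprotein with a redox fold, was at 46.0, 40.6 and 40.3 CPM in Plasmax-TE+Fe, against 121, 131 and 231 CPM in Plasmax. The 3 Plasmax-TE+Fe libraries were nearly equal, while Plasmax replicate 3 was well above the other two Plasmax libraries. SELENOW was 3.81-fold lower (log2 fold change -1.93 ± 0.24 SE, edgeR adjusted p = 1.3e-04), and it was called under all 16 alternative settings. Its level in Plasmax-TE+Fe was close to that in Plasmax-TE, with a log2 fold change of 0.11 (95% interval -0.43 to 0.64) between them.

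SEPHS2, itself a selenoprotein and the enzyme that makes the selenium donor for selenocysteine, moved the other way. It had 227, 304 and 215 CPM in Plasmax-TE+Fe, against 154, 145 and 150 CPM in Plasmax. The groups did not overlap, and replicate 2 was the highest of the Plasmax-TE+Fe libraries. The log2 fold change was 0.73 ± 0.16 (SE, edgeR adjusted p = 0.023), and the call was lost without Plasmax-TE+Fe replicate 2 and without any one of the Plasmax libraries. GPX1, the abundant cytosolic glutathione peroxidase, had 69.7, 85.8 and 73.2 CPM in Plasmax-TE+Fe and 104, 116 and 107 CPM in Plasmax, without overlap but not called (log2 fold change -0.52, edgeR adjusted p = 0.14). GPX3, the secreted form, was at 29.0 ± 3.97 CPM in Plasmax-TE+Fe and 15.7 ± 1.12 CPM in Plasmax (SD, n = 3 each) and was not called either (log2 fold change 0.88, edgeR adjusted p = 0.079). For GPX4, the peroxidase that acts on lipid peroxides, the 95% interval of the log2 fold change ran from -0.54 to 0.20, and for TXNRD1, a thioredoxin reductase, from -0.23 to 0.68. Of 10 genes for the synthesis and insertion of selenocysteine, 0 were called by edgeR, DESeq2 or limma-voom, and 2 had an unadjusted p under 0.05 in edgeR. Over all genes tested, 1420 of 10459 had one.

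Other metal-handling genes gave few calls. Among 18 tested zinc transporters, 0 were called by edgeR, DESeq2 or limma-voom, and 4 had an unadjusted edgeR p under 0.05 (list median 0.04). Over all genes tested, 1420 of 10459 had an unadjusted edgeR p under 0.05. The log2 fold change of SLC39A10, a zinc importer, was 0.71 (95% interval 0.13 to 1.29, edgeR adjusted p = 0.25). SLC30A1, the zinc exporter whose gene also answers to MTF1, had 52.5, 52.9 and 57.3 CPM in Plasmax-TE+Fe and 65.2, 63.6 and 55.9 CPM in Plasmax (log2 fold change -0.18, 95% interval -0.52 to 0.16). Of 8 manganese genes 0 were called by any of the 3 tools, and 2 had an unadjusted edgeR p under 0.05. Of 12 copper genes 1 was called, against 0.507% of all genes called higher. It was CP, the gene of the ferroxidase ceruloplasmin, which carries copper in blood. CP had 130, 231 and 158 CPM in Plasmax-TE+Fe, against 122, 63.6 and 57.7 CPM in Plasmax, and Plasmax replicate 1 nearly reached the lowest Plasmax-TE+Fe library. Its log2 fold change was 1.10 ± 0.26 (SE, edgeR adjusted p = 0.041), and the call was lost without Plasmax-TE+Fe replicate 2.

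Hepcidin expression separated the 2 media more than any other called gene on the higher side. HAMP (ENSG00000105697) had 85.2, 64.8 and 79.2 CPM in Plasmax-TE+Fe, against 8.15, 6.01 and 6.98 CPM in Plasmax. The lowest Plasmax-TE+Fe library was several times above the highest Plasmax library. HAMP was 10.9-fold higher (log2 fold change 3.44 ± 0.31 SE, edgeR adjusted p = 5.3e-06), and over the 16 alternative settings the log2 fold change ran from 3.33 to 3.55 and was called in all. In Plasmax-TE the level was 80.6 ± 29.1 CPM (SD, n = 3), and the log2 fold change of Plasmax-TE+Fe over Plasmax-TE was -0.08 (95% interval -0.56 to 0.40).

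HAMP is known to be switched on by bone morphogenetic proteins (BMP) through SMAD factors, and its promoter is known to hold a BMP response element close to the start. The 250 bases before the start are shown because HAMP was the gene that rose most, with the core of that element (GGCGCC, which reads the same on both strands) in capitals, from chr19:35282278-35282527 (plus strand, RefSeq, GRCh38.p14).
HAMP: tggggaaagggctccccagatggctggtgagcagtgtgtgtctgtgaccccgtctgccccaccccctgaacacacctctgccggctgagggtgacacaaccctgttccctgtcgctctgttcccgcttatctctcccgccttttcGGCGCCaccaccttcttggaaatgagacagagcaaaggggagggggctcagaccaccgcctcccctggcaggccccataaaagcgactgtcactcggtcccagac
The window held 1 core, and 16.4% of 35116 promoter windows held at least 1. Of 11 tested genes of the BMP-SMAD list (17 listed), HAMP alone was called, against 0.507% of all genes called higher. The list median was 0.37. ID1, a classic SMAD target, had 584, 447 and 629 CPM in Plasmax-TE+Fe, against 378, 326 and 345 CPM in Plasmax, without overlap (log2 fold change 0.66 ± 0.19 SE, edgeR adjusted p = 0.097). Without Plasmax-TE+Fe replicate 2, ID1 was called as well (log2 fold change 0.79, edgeR adjusted p = 0.042). SMAD7, which dampens the pathway, and TMPRSS6, which represses HAMP, had log2 fold changes of 0.40 and -0.45 and were not called.

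Iron genes gave 3 calls among 21 tested (27 listed), all higher, against 0.507% of all genes tested, with a list median of -0.08. TF, the iron carrier transferrin, had 1394, 1292 and 1218 CPM in Plasmax-TE+Fe, against 831, 657 and 828 CPM in Plasmax (log2 fold change 0.75 ± 0.16 SE, edgeR adjusted p = 0.020). NCOA4, the receptor that delivers ferritin for degradation, had 370, 303 and 362 CPM in Plasmax-TE+Fe, against 226, 220 and 243 CPM in Plasmax (log2 fold change 0.59 ± 0.13 SE, edgeR adjusted p = 0.031). The third was CP, described with the copper genes, and the libraries of both media were apart for all 3. TFRC, the transferrin receptor, had 69.7, 33.9 and 75.2 CPM in Plasmax-TE+Fe and 71.5, 91.1 and 88.9 CPM in Plasmax, with replicate 2 low in Plasmax-TE+Fe (log2 fold change -0.49, edgeR adjusted p = 0.37). The ferritin chains did not pass the test. The 95% interval of the log2 fold change was -0.43 to 0.27 for FTL and -0.35 to 0.19 for FTH1. All 3 calls were lost without Plasmax replicate 2.

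**Figure D3:**
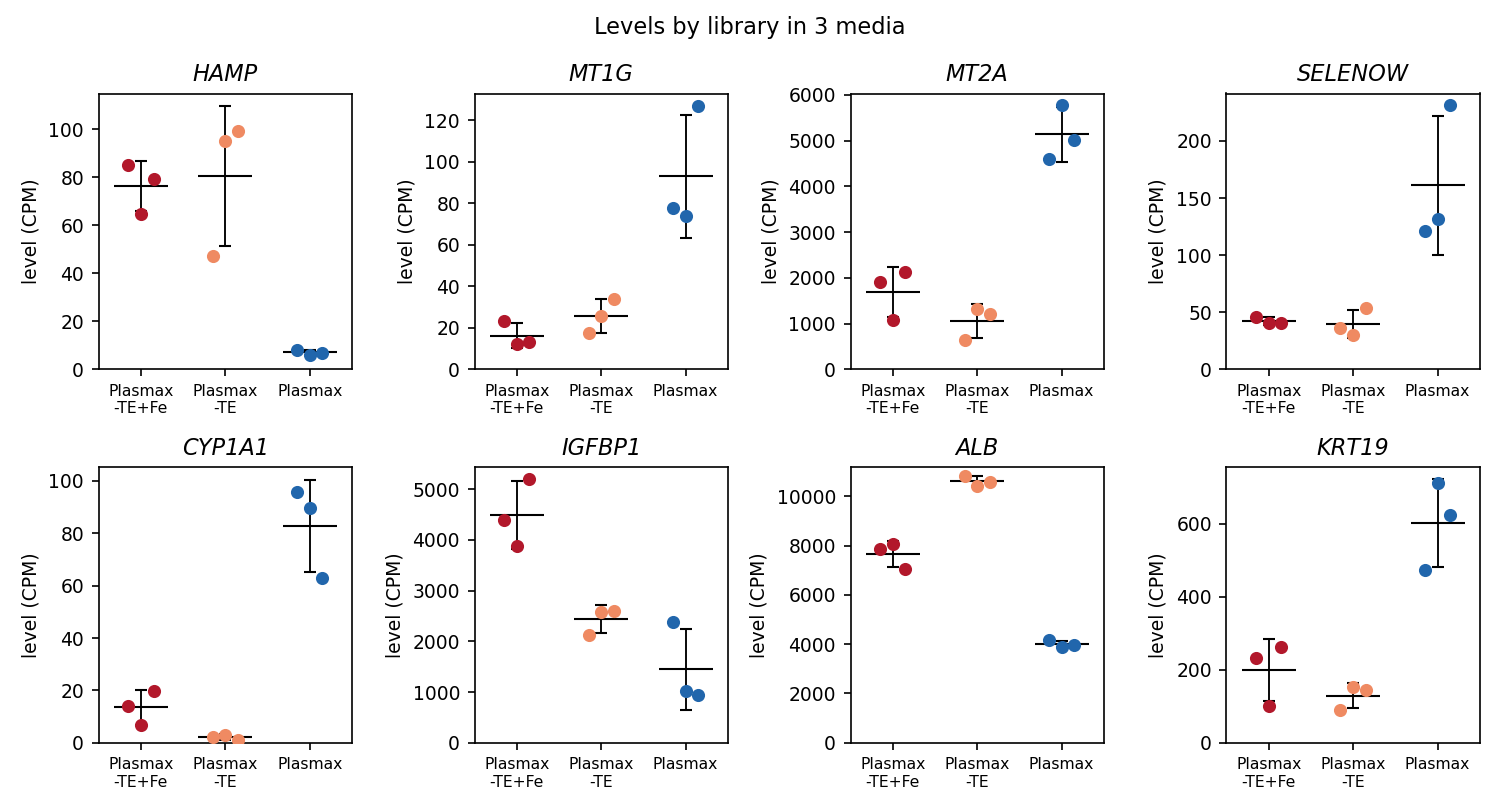
Levels in CPM (vertical axes, each starting at 0) of 8 genes in the 3 libraries of Plasmax-TE+Fe, Plasmax-TE and Plasmax, in that order from left to right. Points are libraries, horizontal bars the means and error bars the SD; HAMP is high in both media prepared without trace elements and low in Plasmax, MT1G, MT2A and SELENOW are low in both and high in Plasmax, and CYP1A1 in Plasmax-TE+Fe lies between the other two media.

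CYP1A1, the cytochrome P450 that is the standard marker of aryl hydrocarbon receptor activity, fell by 2.59 on the log2 scale. It had 14.2, 6.68 and 19.9 CPM in Plasmax-TE+Fe, against 95.9, 89.6 and 62.8 CPM in Plasmax. All Plasmax-TE+Fe libraries lay far below the Plasmax libraries, and the level was 6.02-fold lower (SE 0.27, edgeR adjusted p = 2.3e-05). It was also 1 of 2 genes, with SULT2A1, that were called in both comparisons of Plasmax-TE+Fe. Plasmax-TE had 2.13 ± 1.03 CPM (SD, n = 3), so that Plasmax-TE+Fe stood between the other two media. On the log2 scale it was above Plasmax-TE by 2.60 ± 0.45 (SE, edgeR adjusted p = 0.024). That difference was called in 10 of 16 alternative settings, its adjusted p reaching 0.23, while the difference from Plasmax was called in all 16.

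The receptor is known to bind the motif GCGTG. The 250 bases before the CYP1A1 start are shown because this gene alone was called among the receptor's tested targets, with that motif (on either strand) in capitals, from chr15:74725529-74725778 (minus strand, RefSeq, GRCh38.p14).
CYP1A1: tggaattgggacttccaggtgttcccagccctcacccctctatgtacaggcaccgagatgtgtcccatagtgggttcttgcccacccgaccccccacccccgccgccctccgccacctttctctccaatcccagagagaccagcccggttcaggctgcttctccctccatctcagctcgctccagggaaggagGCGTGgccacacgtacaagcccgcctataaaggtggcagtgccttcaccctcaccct
The window held 1 match, and 32.2% of 35116 promoter windows held at least 1. Further known sites of CYP1A1 lie upstream of this window. Of 5 tested targets (10 listed), CYP1A1 was the one called, against 0.698% of all genes called lower. TIPARP, a receptor-induced enzyme that restrains it, had 8.17, 11.8 and 7.97 CPM in Plasmax-TE+Fe and 8.78, 5.51 and 6.52 CPM in Plasmax (log2 fold change 0.44, edgeR adjusted p = 0.60). AHRR, the receptor's repressor, was at 5.17 ± 1.82 CPM in Plasmax-TE+Fe and 4.02 ± 1.95 CPM in Plasmax (SD, n = 3 each, edgeR adjusted p = 0.74). For NQO1, a quinone reductase, the 95% interval of the log2 fold change ran from -0.45 to 0.54.

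Some liver-secreted proteins were higher in Plasmax-TE+Fe. Among 25 tested hepatocyte transport proteins and markers (28 listed), 4 rose (ALB, AFP, RBP4 and TF), against 0.507% of all genes. Log2 fold changes were positive for 18 of the 25 and negative for 7, with a list median of 0.32. ALB, serum albumin, had 7880, 8053 and 7068 CPM in Plasmax-TE+Fe, against 4154, 3885 and 3989 CPM in Plasmax. Replicates of both media were tight and far apart, with a log2 fold change of 0.94 ± 0.11 (SE, 1.91-fold, edgeR adjusted p = 7.6e-05). AFP, the fetal counterpart of albumin, had 1550, 1599 and 1255 CPM in Plasmax-TE+Fe, against 914, 779 and 772 CPM in Plasmax (log2 fold change 0.84 ± 0.14 SE, edgeR adjusted p = 0.0036). Neither gene overlapped between the media. RBP4, the carrier of retinol, had 1036, 982 and 937 CPM in Plasmax-TE+Fe, against 653, 534 and 710 CPM in Plasmax (log2 fold change 0.64 ± 0.13 SE, edgeR adjusted p = 0.020). TTR and HNF4A, a plasma carrier and the factor that defines hepatocytes, were not called, with log2 fold changes of -0.05 and -0.23. The extremes of the list were not called either, HPX at -1.03 and ITIH1 at 1.53. Without Plasmax replicate 2 the calls were ALB and AFP.

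For this list, Plasmax-TE against Plasmax gave 15 higher and 1 lower call, where 5.61% and 5.63% of all genes were called. Plasmax-TE+Fe against Plasmax-TE gave 0 calls by edgeR, with 12 genes at an unadjusted p under 0.05, against 974 of all 10459 tested. The list median was -0.41, and DESeq2 called 3 lower (ALB, AFP and TFR2) and limma-voom 0. ALB reached 10619 ± 210 CPM in Plasmax-TE (SD, n = 3), and its log2 fold change of Plasmax-TE+Fe over Plasmax-TE was -0.47 (95% interval -0.70 to -0.24, edgeR adjusted p = 0.074). With Plasmax-TE+Fe replicate 2 left out, edgeR called 9 of the 25 lower than in Plasmax-TE, against 124 of all 10701 genes then tested, among them ALB (log2 fold change -0.51, adjusted p = 0.048) and AFP (-0.67, adjusted p = 0.030). Over the 16 alternative settings ALB was called against Plasmax-TE in only 4 and AFP in 3, with adjusted p of up to 0.60 and 0.57.

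Enzymes of steroid metabolism stood out among 13 tested genes of drug, steroid and bile acid metabolism (30 listed). Of the 13, 2 rose, against 0.507% of all genes tested. HSD17B2, which inactivates estradiol and testosterone, had 78.3, 102 and 79.7 CPM in Plasmax-TE+Fe, against 29.5, 31.5 and 23.7 CPM in Plasmax, a 3.07-fold higher level without overlap (log2 fold change 1.62 ± 0.18 SE, edgeR adjusted p = 4.0e-05). SULT2A1, the sulfotransferase of steroids and bile acids, had 50.3, 45.2 and 35.9 CPM in Plasmax-TE+Fe, against 21.3, 20.0 and 10.7 CPM in Plasmax (log2 fold change 1.36 ± 0.22 SE, edgeR adjusted p = 0.0027). It was intermediate, since Plasmax-TE had 92.3 ± 11.3 CPM (SD, n = 3). The log2 fold change of Plasmax-TE+Fe over Plasmax-TE was -1.07 ± 0.19 (SE, edgeR adjusted p = 0.024), called in 11 of 16 alternative settings with an adjusted p of up to 0.23.

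Single liver genes were called in further lists: F10, coagulation factor X, among 14 coagulation genes tested, and SAA4, a constitutive serum amyloid A, with HAMP among 17 acute phase and complement genes. Of all genes tested, 0.507% were called higher. The log2 fold change was 0.83 for F10 and 1.23 for SAA4. Both calls were lost without Plasmax-TE+Fe replicate 2 and without Plasmax replicate 2.

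Genes of fasting and sugar metabolism were among those with the highest fold changes. Of 15 tested genes of gluconeogenesis and FOXO response (17 listed), 2 rose, against 0.507% of all genes tested, with a list median of 0.46. Log2 fold changes were positive for 11 and negative for 4, the lowest being -2.08 for G0S2, which was not called. DEPP1 and KHK, described below, are outside this list. IGFBP1, an insulin-repressed binding protein for growth factors, had 4398, 3883 and 5208 CPM in Plasmax-TE+Fe, against 2371, 1024 and 946 CPM in Plasmax. Plasmax replicate 1 was more than double the other two Plasmax libraries but below all 3 of Plasmax-TE+Fe (log2 fold change 1.64 ± 0.25 SE, edgeR adjusted p = 0.0015). Plasmax-TE had 2438 ± 276 CPM (SD, n = 3), and the log2 fold change of Plasmax-TE+Fe over Plasmax-TE was 0.88 (95% interval 0.37 to 1.40, edgeR adjusted p = 0.15). Without Plasmax-TE+Fe replicate 2 that difference was called (0.98, edgeR adjusted p = 0.046). It was called in only 2 of 16 alternative settings, with an adjusted p of up to 0.68.

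G6PC, the phosphatase that releases glucose, had 24.5, 27.8 and 27.4 CPM in Plasmax-TE+Fe, against 13.8, 4.51 and 1.40 CPM in Plasmax. Plasmax libraries were spread widely while those of Plasmax-TE+Fe were nearly equal (log2 fold change 2.12 ± 0.38 SE, edgeR adjusted p = 0.0057), and the call was lost without Plasmax replicate 2 (edgeR adjusted p = 0.075). Its log2 fold change was 3.16 without Plasmax replicate 1 and 1.59 without Plasmax replicate 3. DEPP1, a FOXO-induced gene, had 329, 314 and 317 CPM in Plasmax-TE+Fe, against 150, 84.1 and 72.6 CPM in Plasmax (log2 fold change 1.66 ± 0.25 SE, edgeR adjusted p = 0.0013). KHK, the kinase that starts fructose breakdown, had 26.2, 18.5 and 22.9 CPM in Plasmax-TE+Fe, against 8.15, 10.5 and 5.12 CPM in Plasmax (log2 fold change 1.52 ± 0.26 SE, edgeR adjusted p = 0.0043). MLX, the partner of the glucose-sensing factor MLXIPL, was called higher in its list of 6 (log2 fold change 1.07), against 0.507% of all genes tested. Its call was lost without Plasmax-TE+Fe replicate 2 and without Plasmax replicate 2. TXNIP, the glucose-responsive arrestin, was not called (-0.55, edgeR adjusted p = 0.16).

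MAT2A, which makes the methyl donor S-adenosylmethionine, was the gene among the 12 highest whose Plasmax-TE+Fe libraries varied most. It had 135, 309 and 89.1 CPM in Plasmax-TE+Fe, with replicate 2 far above the others, against 53.3, 42.6 and 53.5 CPM in Plasmax. The groups did not overlap (log2 fold change 1.83 ± 0.32 SE, edgeR adjusted p = 0.0040), and the call was lost without Plasmax replicate 2 (edgeR adjusted p = 0.053). The rest of the 12 highest were low in abundance. LOX, the enzyme that cross-links collagen and a hypoxia target, had 8.17, 6.17 and 10.5 CPM in Plasmax-TE+Fe, against 1.25, 2.00 and 0.931 CPM in Plasmax (log2 fold change 2.52 ± 0.46 SE, edgeR adjusted p = 0.0066). PCOLCE2, NAALADL1, PDCD6IPP2 and CIPC had log2 fold changes of 1.94, 1.57, 1.56 and 1.43. PCOLCE2 held in 9, NAALADL1 in 8 and CIPC in 7 of 16 alternative settings, and PDCD6IPP2, a pseudogene copy of PDCD6IP whose reads may be shared with it, in 15. NAALADL1 and CIPC were not called without Plasmax-TE+Fe replicate 2.

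**Figure D4:**
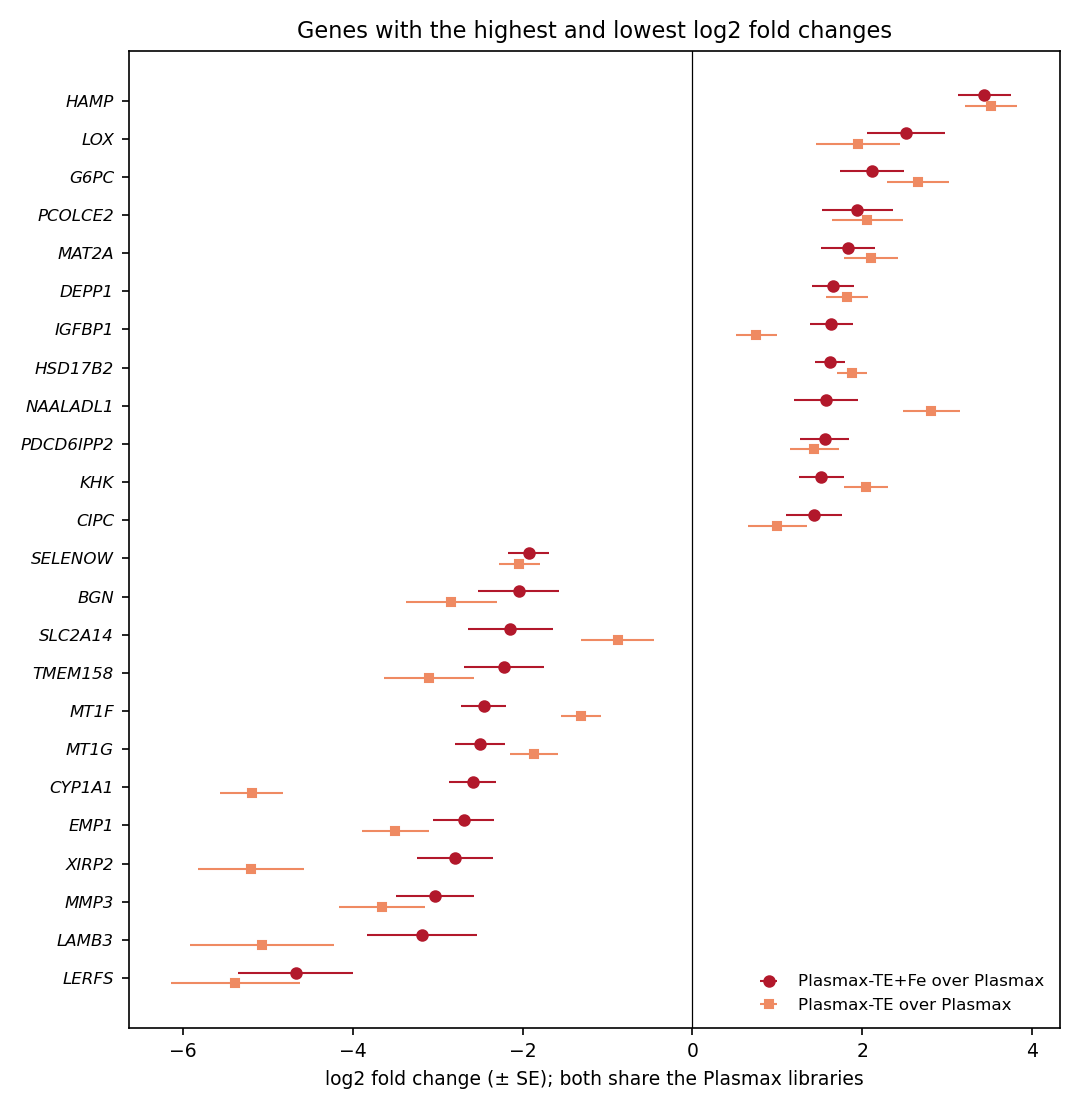
Log2 fold changes with SE (horizontal axis) in Plasmax-TE+Fe over Plasmax (red circles) for the 12 genes that top the called genes and the 12 at the bottom, beside Plasmax-TE over Plasmax (orange squares). Both measures use the same Plasmax libraries; HAMP lies at 3.44 and 3.52, SELENOW at -1.93 and -2.04, and CYP1A1 at -2.59 and -5.19.

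On the lower side, the largest fold changes were in genes of low abundance. LERFS, a long noncoding RNA, had 1, 0 and 1 raw counts in the Plasmax-TE+Fe libraries, against 17, 22 and 16 in the Plasmax libraries. Summed over 3 libraries each and scaled for depth, the Plasmax level was 30.1 times that of Plasmax-TE+Fe, with an exact 95% interval of 7.94 to 255 that covers counting error only. LAMB3, a laminin chain of basement membranes, had 2, 0 and 3 raw counts in Plasmax-TE+Fe and 8, 18 and 19 in Plasmax, a ratio of 9.85 (3.92 to 31.8). Its edgeR call was lost without Plasmax-TE+Fe replicate 1, without Plasmax-TE+Fe replicate 2 and without Plasmax replicate 2.

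MMP3, a matrix-degrading protease, had 0.860, 1.03 and 2.99 CPM in Plasmax-TE+Fe, against 11.3, 18.0 and 11.2 CPM in Plasmax (log2 fold change -3.03 ± 0.46 SE, edgeR adjusted p = 0.0015). XIRP2, an actin-binding protein known from muscle, had 2.15, 1.03 and 2.99 CPM in Plasmax-TE+Fe, against 15.7, 18.0 and 10.7 CPM in Plasmax (log2 fold change -2.80 ± 0.45 SE, edgeR adjusted p = 0.0025). Both were without overlap and held in every alternative that tested them. TMEM158, a RAS-induced membrane protein, SLC2A14, a glucose transporter near-identical to SLC2A3, and BGN, the proteoglycan biglycan, had log2 fold changes of -2.22, -2.15 and -2.05. They held in 11, 4 and 8 of the 14 alternatives that tested them, and none of the 3 was called without Plasmax-TE+Fe replicate 2.

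Genes of growth factor signalling gave further lower calls. Of 23 tested EGFR ligands and ERK-responsive genes (30 listed), 3 fell, against 0.698% of all genes tested, with a list median of -0.23. EMP1, an epithelial membrane protein, had 8.60, 3.08 and 3.98 CPM in Plasmax-TE+Fe, against 35.1, 46.1 and 24.2 CPM in Plasmax, a 6.48-fold lower level (log2 fold change -2.70 ± 0.36 SE, edgeR adjusted p = 3.4e-04). DUSP5, the nuclear phosphatase that switches ERK off, had 17.2, 6.68 and 26.9 CPM in Plasmax-TE+Fe, against 58.9, 68.1 and 38.2 CPM in Plasmax (log2 fold change -1.69 ± 0.35 SE, edgeR adjusted p = 0.017). The third, GPRC5A, a receptor that dampens EGFR, averaged 6.49 ± 4.45 CPM in Plasmax-TE+Fe and 23.6 ± 4.26 CPM in Plasmax (SD, n = 3 each, edgeR adjusted p = 0.030), and its call was lost without Plasmax-TE+Fe replicate 2. Without Plasmax replicate 2, neither DUSP5 nor GPRC5A was called.

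In the 3 called genes and in AREG, Plasmax-TE+Fe replicate 2 was the lowest library of all 6. AREG, the EGFR ligand amphiregulin, had 283, 74.5 and 370 CPM in Plasmax-TE+Fe, against 783, 746 and 516 CPM in Plasmax. The groups did not overlap, but the gene was not called (log2 fold change -1.49 ± 0.39 SE, edgeR adjusted p = 0.068). It was called against Plasmax-TE, which had 58.9 ± 30.2 CPM (SD, n = 3). There the log2 fold change of Plasmax-TE+Fe over Plasmax-TE was 2.03 ± 0.42 (SE, edgeR adjusted p = 0.037), called in 7 of 16 alternative settings with an adjusted p of up to 0.31. With Plasmax-TE+Fe replicate 2 left out, edgeR called 5 genes of the list higher than in Plasmax-TE, against 105 of all 10701 genes then tested. All 13 edgeR calls of this list in Plasmax-TE against Plasmax were lower, where 5.63% of all genes were called lower and 5.61% higher.

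Among 12 tested immediate early and heat shock genes (17 listed), 2 fell, against 0.698% of all genes tested. ZFP36L1, which destabilises messenger RNAs with AU-rich elements, had 270, 205 and 330 CPM in Plasmax-TE+Fe, against 652, 705 and 525 CPM in Plasmax (log2 fold change -1.22 ± 0.17 SE, edgeR adjusted p = 5.6e-04), and it held in all 16 alternatives. JUN, a subunit of AP-1, had a log2 fold change of -0.77 (edgeR adjusted p = 0.042) and was not called without Plasmax-TE+Fe replicate 2 or without Plasmax replicate 2. Of 26 tested p53 targets 3 fell, against 0.698% of all genes tested, with a list median of -0.35. PMAIP1, which encodes the cell death protein NOXA, had 9.89, 6.17 and 9.96 CPM in Plasmax-TE+Fe, against 36.4, 36.6 and 23.7 CPM in Plasmax (log2 fold change -1.87 ± 0.29 SE, edgeR adjusted p = 0.0015). ZMAT3 and RRM2B were 1.59- and 1.75-fold lower, and both calls were lost without Plasmax replicate 2. Without Plasmax-TE+Fe replicate 2 the call of RRM2B was lost and PHLDA3 was called in its place. CDKN1A, the cell cycle inhibitor p21, was at 153 ± 50.2 CPM in Plasmax-TE+Fe and 262 ± 57.2 CPM in Plasmax (SD, n = 3 each) and was not called (edgeR adjusted p = 0.083).

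Progenitor and biliary markers moved both ways. Of 11 tested (15 listed), 2 rose (DLK1 and AFP, both fetal liver genes) and 2 fell (KRT19 and SOX4), and all 4 calls held in the 16 alternatives. Of all genes tested, 0.507% were called higher and 0.698% lower. Their summed level was 4758 to 5132 CPM in Plasmax-TE+Fe and 4335 to 4648 CPM in Plasmax. KRT19, the keratin of bile ducts, had 233, 102 and 263 CPM in Plasmax-TE+Fe, against 473, 712 and 625 CPM in Plasmax, lowest in Plasmax-TE+Fe replicate 2 (log2 fold change -1.60 ± 0.26 SE, edgeR adjusted p = 0.0027). SOX4, a progenitor transcription factor, averaged 179 ± 30.7 CPM in Plasmax-TE+Fe and 370 ± 38.8 CPM in Plasmax (SD, n = 3 each; edgeR adjusted p = 0.0027). DLK1 had 369, 334 and 328 CPM in Plasmax-TE+Fe, against 177, 190 and 211 CPM in Plasmax (log2 fold change 0.83 ± 0.13 SE, edgeR adjusted p = 0.0025). In these bulk samples, fewer cells of a type and less RNA per cell cannot be told apart.

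Of 24 tested matrix and cytoskeletal genes (30 listed), LOX and CCN2 rose and TIMP1 fell, against 0.507% higher and 0.698% lower of all genes tested. Log2 fold changes were negative for 21 of the 24 and positive for 3, with a list median of -0.31. CCN2, a secreted matrix protein and YAP target, had 929, 687 and 781 CPM in Plasmax-TE+Fe, against 520, 343 and 327 CPM in Plasmax (log2 fold change 1.01 ± 0.22 SE, edgeR adjusted p = 0.024). TIMP1, an inhibitor of matrix proteases, was at 92.2 ± 28.2 CPM in Plasmax-TE+Fe and 176 ± 41.8 CPM in Plasmax (SD, n = 3 each; edgeR adjusted p = 0.031), a call lost without Plasmax-TE+Fe replicate 2. The stellate marker ACTA2, smooth muscle actin, fell to 29.2 ± 3.35 CPM in Plasmax-TE+Fe, against 61.2 ± 6.30 CPM in Plasmax (SD, n = 3 each; edgeR adjusted p = 0.0090). PDGFRB, the other of the 2 tested stellate markers, went the other way, with a log2 fold change of 0.68, and was not called. The summed level of the 2, made up mostly of ACTA2, was 31.4 to 36.1 CPM in Plasmax-TE+Fe and 58.3 to 70.6 CPM in Plasmax. The other defining stellate markers were not among the genes tested. Without Plasmax replicate 2, the calls of CCN2, TIMP1 and ACTA2 were lost.

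**Figure D5:**
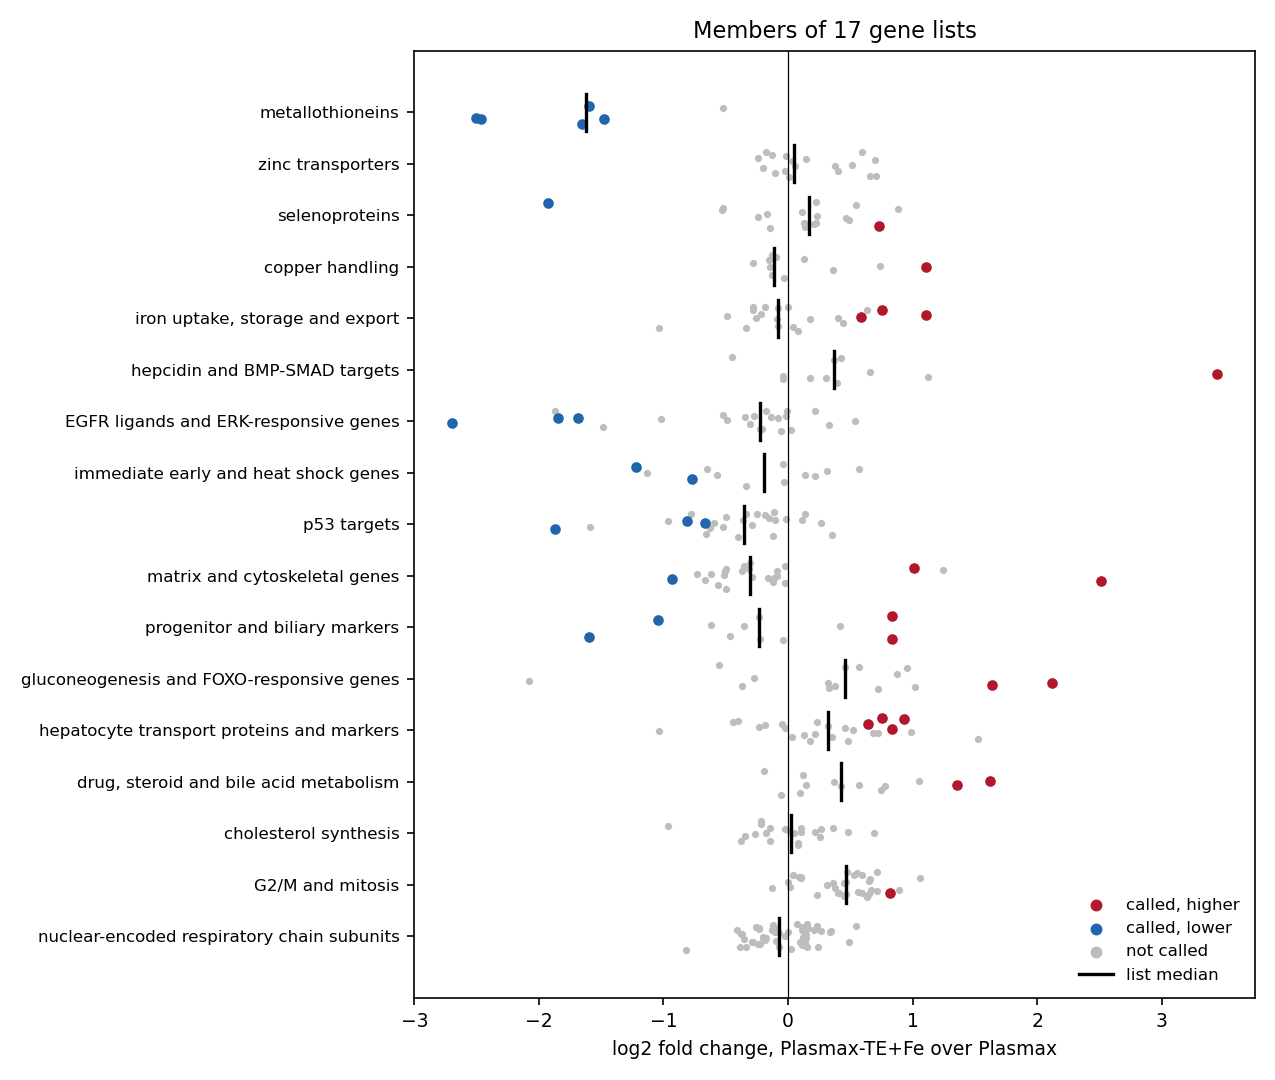
Log2 fold change of Plasmax-TE+Fe over Plasmax (horizontal axis) of every tested member of 17 gene lists, 1 point per gene, with red for called higher, blue for called lower and grey for not called. Black bars are list medians; the metallothionein median lies at -1.62, and that of the other lists drawn lies between -0.35 and 0.47.

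Several large pathways held few or no called genes. In 12 lists, 0 genes were called by edgeR, DESeq2 or limma-voom, and their counts at an unadjusted edgeR p under 0.05 were as follows. Over all genes tested, that count was 1420 of 10459. Of lipid genes, that count was 0 of 22 tested for cholesterol synthesis (median 0.03), 1 of 13 for fatty acid synthesis, 4 of 20 for fatty acid oxidation and 2 of 12 for apolipoproteins. Of stress genes, it was 5 of 33 for ATF4 targets, 3 of 21 for the unfolded protein response, 4 of 26 for NRF2 targets and 0 of 9 for interferon-stimulated genes. Of energy and growth genes, it was 1 of 14 for glycolysis, 2 of 25 for heme and iron-sulfur assembly, 5 of 49 for the respiratory chain and 2 of 33 for S phase. In Plasmax-TE against Plasmax, edgeR called 6 higher and 1 lower gene of cholesterol synthesis, 8 and 2 of fatty acid oxidation, and 1 and 10 ATF4 targets, where 5.61% of all genes were called higher and 5.63% lower. In Plasmax-TE+Fe against Plasmax-TE, it called 1 lower gene of cholesterol synthesis, 2 lower of fatty acid oxidation and 0 ATF4 targets (DESeq2 1, limma-voom 0). Over all genes, 0.0861% were called higher there and 0.172% lower. At an unadjusted edgeR p under 0.05 were 17 of 22, 10 of 20 and 7 of 33, with list medians of -0.54, -0.27 and 0.35. Over all genes in that comparison, 974 of 10459 were under 0.05. Against Plasmax and without Plasmax-TE+Fe replicate 2, edgeR called 3 NRF2 targets higher, the aldo-keto reductases AKR1C2, AKR1C3 and AKR1B10. In that fit 41 of all 10701 genes tested were called higher. AKR1C2 had 328, 141 and 357 CPM in Plasmax-TE+Fe, with replicate 2 at the Plasmax level, against 96.6, 133 and 142 CPM in Plasmax. The AKR1C genes are near-identical copies, and their single values are uncertain.

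Of 33 tested G2/M and mitosis genes, 31 had a positive log2 fold change, with a median of 0.47. Only CENPE, a kinetochore motor, was called, against 0.507% of all genes called higher. CENPE was at 37.0 ± 1.32 CPM in Plasmax-TE+Fe and 21.0 ± 1.28 CPM in Plasmax (SD, n = 3 each, log2 fold change 0.82 ± 0.18 SE, edgeR adjusted p = 0.026). Its call was lost without Plasmax-TE+Fe replicate 2 and without Plasmax replicate 2. Of 67 tested ribosomal protein genes, RPS7 and RPL13A were called higher, against 0.507% of all genes tested, and the median was 0.19. Ribosomal protein genes have many pseudogene copies, with which reads can be shared. RPS7 and RPL13A were both lost as calls without Plasmax replicate 2, and RPS7 also without Plasmax-TE+Fe replicate 2.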

How the data were processed

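HepG2 total RNA (4 media, 12 libraries, 3 each) was sequenced from the 3′ end with QuantSeq. The submitters' processing notes list STAR 2.7.5b and featureCounts 1.6.3, cutadapt 1.16 and FastQC 0.72, limma 3.40.6, and build hg19 (GRCh37). Annotation and strand setting are not given in the sources used here. Raw counts per gene without normalization were what the authors deposited. No gene has fewer than 3 libraries at 4.04 CPM or more, so the table lacks low genes. Of 10994 entries, 54 duplicates with identical counts were dropped.

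The count analysis ran in R 4.3.3 and edgeR 4.0.16. The filter filterByExpr (minimum count 10, minimum total 15) removed 481 genes, TMM factors were applied, and all 12 libraries entered a quasi-likelihood model of the 4 media with 8 residual degrees of freedom. Tests were two-sided with Benjamini-Hochberg adjustment over the 10459 genes, called under 0.05. SE were derived from the F statistic. The smallest p of an exact permutation test with 3 libraries a side is 0.1, so p-values rest on the spread shared across genes. The script was tested on simulated data.

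Named genes were HAMP, MT1G and SELENOW, then, among called genes without overlap that averaged 5 CPM or more in 1 medium, 12 from each end of the log2 fold change, up to 6 members of each list with the lowest p, and any metallothionein, selenoprotein, aryl hydrocarbon receptor or BMP-SMAD gene. SLC30A1, FTL, FTH1, TTR and HNF4A were added for their known roles. Not every gene named by the rule is described. The genes and lists were chosen with earlier results of these data known, and lists are described by counts and medians, without a set test. Some lists share members. Replicate numbers did not pair the libraries of the 2 media (correlations of deviations -0.049, -0.066 and -0.062), and neither did the run of library numbers (0.025, 0.066 and 0.026). Alternatives changed the scaling (RLE, library size), the tool (DESeq2 1.42.0, voom of limma 3.58.1), the filter (none, 5 CPM) or the design (replicate or library-number block, the 6 libraries alone, libraries left out). EMEM libraries entered the fit and are not described. Promoter windows of 250 bases came from RefSeq (GRCh38.p14), another build than that of the counts.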

Additional observations from a re-analysis of the deposited data

How the results depend on the processing

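All 126 called genes kept their direction in each of the 16 alternatives that tested them (a few low genes were not tested in all). The 126 were chosen from these same libraries, so a kept direction is no separate evidence. Of the 126, 30 (10 higher, 20 lower) were called under every alternative that tested them, among them HAMP, MT1G and SELENOW. Against 126 calls, RLE factors gave 125, library size alone 137, DESeq2 148, limma-voom 127, no filter 126 and a mean of 5 CPM 120. The replicate block gave 105, and the library-number block 372. The 6 libraries alone gave 77, and leaving out single libraries gave 31 (without Plasmax replicate 2) to 97. Without the 2 libraries that stood apart (Plasmax-TE+Fe replicate 2, Plasmax-TE replicate 1) there were 174, of which 92 were higher. The labels name neither replicate numbers nor runs of library numbers as batches, so the block values are no measure of weaker or stronger effects. The 2 libraries that stood apart fall in the same run of library numbers, and its part in the counts was not tested. For Plasmax-TE+Fe against Plasmax-TE (27 calls), DESeq2 gave 71, the replicate block 19, the library-number block 152, and the 6 libraries alone 0 (776 genes at an unadjusted p under 0.05, against 768 by DESeq2 on all libraries). Single libraries left out gave 0 to 229, the 0 (with 549 to 981 genes at an unadjusted p under 0.05) without Plasmax-TE+Fe replicate 1 or 3 or Plasmax-TE replicate 2 or 3, the 229 without Plasmax-TE+Fe replicate 2, and both libraries left out 99. Causes were not tested. At this depth, genes near 5 CPM rest on few counts a library, and with 3 libraries a medium the smallest called absolute log2 fold change was 0.59.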

Other observations

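The genes below, outside the lists described, were singled out after their values were seen. RAB3B, a small GTPase of vesicle release, had 32.3, 34.4 and 38.3 CPM in Plasmax-TE+Fe, against 95.3, 110 and 106 CPM in Plasmax, and only HAMP had a lower p. Its log2 fold change of -1.57 ± 0.16 (SE, edgeR's quasi-likelihood test, Benjamini-Hochberg adjusted p = 2.3e-05) was too small for the 12 lowest. TSC22D3, the glucocorticoid-induced leucine zipper gene, had 25.4, 9.77 and 22.4 CPM in Plasmax-TE+Fe, against 70.2, 61.1 and 53.5 CPM in Plasmax (log2 fold change -1.66 ± 0.30 SE, edgeR adjusted p = 0.0064).

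Secreted signalling molecules were called in both directions. IL1RN, the antagonist of the interleukin-1 receptor, had 154, 164 and 184 CPM in Plasmax-TE+Fe, against 102, 51.1 and 74.5 CPM in Plasmax (log2 fold change 1.15 ± 0.20 SE, edgeR adjusted p = 0.0037). THBS1, thrombospondin 1, was 2.46-fold higher. IL11, an interleukin-6 family cytokine, had 36.1, 16.4 and 33.4 CPM in Plasmax-TE+Fe, against 64.6, 91.1 and 51.2 CPM in Plasmax (log2 fold change -1.26 ± 0.27 SE, edgeR adjusted p = 0.024), and PDGFA, a platelet-derived growth factor chain, was 2.58-fold lower. The calls of all 4 were lost without Plasmax replicate 2, and those of IL11 and PDGFA also without Plasmax-TE+Fe replicate 2. The small nucleolar RNA gene SNORD13 had 61.1, 543 and 65.2 CPM in Plasmax-TE+Fe, replicate 2 far above the rest, against 37.0, 17.5 and 12.1 CPM in Plasmax, and it was not called (log2 fold change 3.36 ± 0.89 SE, edgeR adjusted p = 0.074).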
